A study of Mus musculus with 14 samples.

Results

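After repeated ovalbumin challenge, lungs of Mcemp1-/- mice were compared with lungs of wild-type (WT) mice by RNA sequencing. The 8 ovalbumin (OVA) libraries, 4 per genotype, were chosen from the 14 of the series by their sample labels, and all 22771 genes that passed a filter on low values were tested. All mice were on the C57BL/6 strain and were 6 to 8 weeks old at the first injection, so they were older by the whole course of injections and challenges when lungs were taken. OVA mice received OVA by intraperitoneal injection on days 1, 4 and 7, and from 5 days after the last injection were challenged through the nose weekly for 8 weeks. The remaining 3 WT and 3 Mcemp1-/- libraries came from mice given saline and serve here as the background for each gene. The knockout was made with CRISPR-Cas9 aimed at exon 1 in zygotes, and it is carried by every cell of the animal. The labels do not say that each library is a separate animal, so p-values measure the spread between these libraries, part of which may be technical.

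MCEMP1 (mast cell-expressed membrane protein 1) is a membrane protein of mast cells and other myeloid cells whose cytoplasmic tail carries a tyrosine motif of the kind that links immune receptors to kinases. In allergic lung inflammation, monocytes and eosinophils are drawn into the tissue by CC chemokines such as CCL2, CCL7 and CCL24, and macrophages in a milieu of interleukin-4 and interleukin-13 take on an alternatively activated state. Interferon gamma from T cells and natural killer cells induces a separate programme of GTPases, antigen-processing genes and checkpoint ligands.

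The sequences below show the part of Mcemp1 that the knockout targets and 2 promoters of interferon-induced genes described later. Mcemp1 lies on the plus strand of chromosome 8 (GRCm38, GENCODE M21), and the coding part of its exon 1 is chr8:3665782-3665836, shown with its start codon in capitals. The promoters are the 250 bases before the RefSeq start (GRCm38.p6), chr19:29367188-29367437 for Cd274 and chr11:58199306-58199555 for Igtp, both on the plus strand. Capitals mark matches, on either strand, to TTCNNNGAA (the core of an interferon gamma-activated site) or GAAANNGAA (the core of an interferon-stimulated response element), and the reverse complement of a match is shown as it stands on the plus strand.
Mcemp1 exon 1, coding part: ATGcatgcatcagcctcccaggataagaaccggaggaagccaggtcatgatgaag
Cd274 promoter: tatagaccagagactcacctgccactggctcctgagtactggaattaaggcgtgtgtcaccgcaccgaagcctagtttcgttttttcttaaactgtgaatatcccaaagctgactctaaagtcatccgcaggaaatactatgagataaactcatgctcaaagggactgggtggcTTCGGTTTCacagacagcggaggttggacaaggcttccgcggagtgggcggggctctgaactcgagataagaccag
Igtp promoter: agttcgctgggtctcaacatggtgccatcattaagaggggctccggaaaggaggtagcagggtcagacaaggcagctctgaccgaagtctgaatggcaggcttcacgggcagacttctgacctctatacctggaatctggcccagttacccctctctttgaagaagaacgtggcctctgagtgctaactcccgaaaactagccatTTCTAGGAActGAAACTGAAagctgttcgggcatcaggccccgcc
Of the 13844 tested genes with a promoter in the table, 6.17% held the first motif and 6.45% the second. Of the 22 interferon gamma-induced genes described below, 16 had a promoter, of which 9 held the first motif and 12 the second. Of the 48 genes lower in the knockout after OVA, 29 had a promoter, of which 1 held the first motif and 4 the second.

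Depth, estimated as the column total over the lowest value, was, in units of 1000000 reads, 47.3 to 49.4 in the OVA WT libraries and 57.2 to 67.1 in the OVA Mcemp1-/- libraries, so depth was separate between the groups. The lung label was borne out by Sftpc, the alveolar type 2 surfactant gene, at 6619 to 12361 normalized counts in the OVA libraries, and by Sftpa1 at 1981 to 3117, Scgb1a1 at 4346 to 16109 and Ager at 391 to 939. Mitochondrially encoded genes took 21.96% to 25.8% of the column total in OVA WT and 14.6% to 22.3% in OVA Mcemp1-/- libraries. Heart muscle genes summed to 72.6 to 210.7 in OVA WT and 177.3 to 615.0 in OVA Mcemp1-/- libraries. Among the OVA Mcemp1-/- libraries, library 1 stood apart. It was the highest of the 4 in 33 of the 48 genes called lower, and the lowest of the 4 in 16 of the 23 genes called higher that are not immunoglobulin variable segments, against 26.6% and 28.7% of all genes tested. OVA WT library 2 and OVA Mcemp1-/- library 3 stood apart in airway genes. Their mean log2 levels of goblet cell and mucus genes were 4.76 and 5.42, against 2.24 to 3.81 in the other OVA libraries, and of ciliated cell genes 5.29 and 5.67, against 3.86 to 5.04. WT library 2 was also the highest OVA library in B cell genes (6.16, others 3.50 to 4.50), and Mcemp1-/- library 3 in fat genes (4.43, others 1.80 to 2.72). Without this pair 67 genes were called, 40 higher and 27 lower, of which 35 were among the 90 called with all libraries. Among the genes described below, Mcemp1, Ccl2, Ccl24, Timp1, C3ar1, Ifi208 and both Nnt IDs were still called without the pair. So were Kpna2, Plac9a, Tmem254a, Lrmda, Duxbl1, Mid1, G530011O06Rik, Gm15446 and Gm47917. Ccl7, Trem2, Cd274, Ms4a7, Lgmn, Tbxas1, Batf3, Acod1, Igha, Scgb1c1, Vnn3, Aox3, Btc and 1010001B22Rik were not (adjusted p = 0.0542 to 0.0944, limma). In bulk lung, fewer cells of a type and less RNA per cell cannot be told apart.

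After OVA, 48 genes were lower and 42 higher in Mcemp1-/- than in WT lung at an adjusted p under 0.05 (limma, Benjamini-Hochberg over all genes tested), which is 0.211% and 0.184% of the genes tested. A gene past this threshold is said to be called, to have fallen or to have risen. The 4 values of 1 genotype did not overlap those of the other in any of the 90, and over all genes that was so for 7.16%, made up of 4.05% lower and 3.11% higher. The median log2 difference over all genes was 0.01. When each column was scaled to an equal total, this median became 0.11, and the split of calls became 101 higher and 31 lower. Of the 42 genes that rose, 19 were immunoglobulin variable segments. In 21 of the 23 others, the OVA WT mean was below the saline WT mean. In 43 of the 48 genes that fell, the OVA WT mean was above the saline WT mean. The genes were called on these same OVA WT values, so both counts are tilted this way by the choice of genes. The share over all genes was not counted. The number of calls depended on single libraries. All 90 remained called without Mcemp1-/- library 1, and there were then 577 lower and 549 higher, 2.54% and 2.42% of the 22677 genes tested. Library 1 was singled out for its rank in the called genes, so counts of calls without it, here and in the lists below, are raised by that choice. Without WT library 1, 2, 3 or 4 there were 29, 73, 91 or 50 calls, and without Mcemp1-/- library 2, 3 or 4 there were 34, 51 or 31. Of the 90, 23 were called in every one of the 14 fits that left out 1 library each, and 38 had an adjusted p above 0.04. A fit of the 8 OVA libraries alone called 17 genes, 16 of them among the 90.

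**Figure D1:**
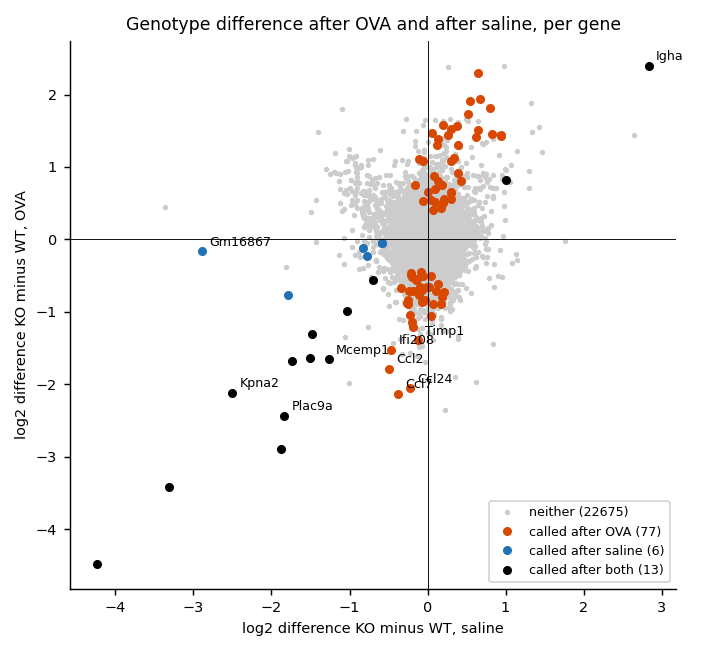
Log2 difference, Mcemp1-/- minus WT, for each gene tested after saline (horizontal axis) and after OVA (vertical axis), each point 1 gene, with the color showing where the gene passed an adjusted p of 0.05. The 13 black points, called after both treatments, lie near the diagonal, while Ccl2, Ccl7 and Ccl24 lie far below 0 only on the OVA axis.

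Mcemp1, the targeted gene, was checked first. Its normalized count was 20.1, 11.5, 12.8 and 14.6 in OVA WT libraries 1 to 4 and 4.88, 3.73, 4.17 and 4.25 in the OVA Mcemp1-/- libraries. The groups did not overlap, and the lowest WT value was well above the highest knockout value. The Mcemp1-/- mean was 28.8% of WT (log2 difference -1.66 ± 0.16 SE, adjusted p = 0.000172, limma). A two-sided exact permutation test over the 8 libraries gave p = 0.0286, the smallest that 70 splits allow. After saline the means were 10.6 ± 1.196 (SD, n = 3) in WT and 4.12 ± 0.77 (SD, n = 3) in Mcemp1-/- lung (adjusted p = 0.0124, limma). Transcript remained in every knockout library, and these reads alone do not say whether protein is made from it. The study reports a deletion that shifts the reading frame and creates an early stop codon. It also reports loss of the protein in knockout lungs by immunoblotting and immunohistochemistry.

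Chemokines that draw monocytes and eosinophils were among the genes that fell most. Ccl2, the main ligand of CCR2 on monocytes, was at 5.48, 8.77, 5.08 and 4.94 normalized counts in OVA WT libraries and at 1.90, 1.19, 1.72 and 0.8294 in OVA Mcemp1-/- libraries. The groups were far apart, and both saline groups lay lower still, at 0.906 ± 0.26 (SD, n = 3) in WT and 0.490 ± 0.11 (SD, n = 3) in Mcemp1-/- lung. The Mcemp1-/- mean was 23.2% of WT after OVA (log2 difference -1.78 ± 0.21 SE, adjusted p = 0.00153, limma), and the call held in all 14 fits that left out a library. Ccl7, a second monocyte chemokine whose gene neighbors Ccl2, was at 13.8, 23.8, 9.64 and 9.67 in OVA WT and at 5.03, 2.03, 3.95 and 1.07 in OVA Mcemp1-/- libraries. WT library 2 was highest and Mcemp1-/- library 1 the highest of its group, with a gap still between the groups (21.2% of WT, log2 difference -2.13 ± 0.38 SE, adjusted p = 0.0358, limma). Ccl24, an eosinophil chemoattractant acting on CCR3, was at 4.65, 10.1, 4.06 and 2.77 in OVA WT and at 1.71, 0.333, 1.29 and 0.329 in OVA Mcemp1-/- libraries (16.97% of WT, log2 difference -2.05 ± 0.36 SE, adjusted p = 0.0325, limma). Ccl24 and Ccl7 were low genes in saline lung, where no library exceeded 2.23. Their calls held in 5 and 4 of the 14 fits that left out a library, with adjusted p up to 0.101 and 0.105. The Ccl24 call was lost without OVA WT library 1, OVA Mcemp1-/- library 2 or 4, or any 1 saline library, and the Ccl7 call without OVA WT library 1, 2 or 4, OVA Mcemp1-/- library 2 or 4, saline WT library 1 or 3, or any 1 saline Mcemp1-/- library.

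**Figure D2:**
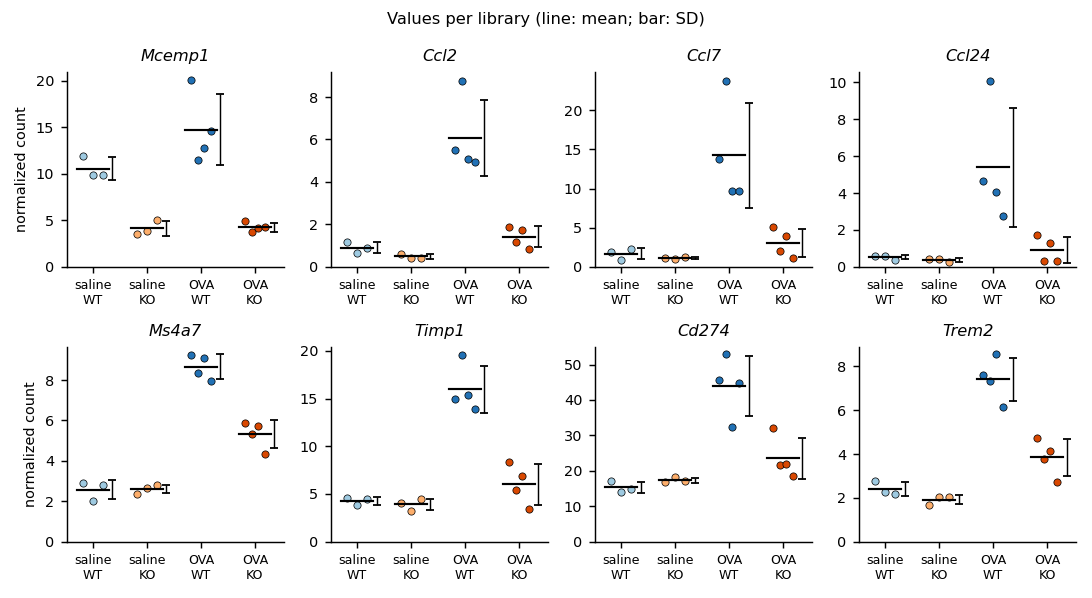
Normalized count per library for Mcemp1 and 7 genes that fell, in the 4 groups (blue: WT, orange: Mcemp1-/-; darker colors: OVA), with the mean as a line and the SD as a bar. In each panel the 4 OVA Mcemp1-/- libraries lie below the 4 OVA WT libraries, and in the 7 panels other than Mcemp1 the saline groups of both genotypes lie together at low values.

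Of the 14 chemokines and receptors listed as acting on monocytes and eosinophils, all 14 had a log2 difference below 0, 4 fell and 11 had an unadjusted p under 0.05 in that direction, against 9.21% of all genes. Without the pair rich in airway genes, 10 were lower and 1 higher at that level, against 1655 lower and 2110 higher over all genes. In that fit 3 of the 14 were called lower, against 27 over all genes. The list median was -0.80, and -0.94 without Mcemp1-/- library 1, when 6 of the 14 fell, against 2.54% of all genes. This count is raised by the choice of that library. Ccl9, Ccl12 and Ccl11, an eotaxin, had log2 differences of -0.98, -1.05 and -1.23 with adjusted p of 0.0535, 0.0602 and 0.160 and were not called (limma).

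Alternatively activated macrophage genes had lower values in the knockout, but few passed the test. Of 18 measured, 17 had a log2 difference below 0 and the median was -0.70. At an unadjusted p under 0.05, 11 were lower, against 9.21% of all genes. Of the 18, 2 fell (Trem2 and Ccl24, the latter also in the chemokine list), against 0.211% of all genes. Trem2, a lipid-sensing receptor of macrophages, was at 7.62, 7.33, 8.54 and 6.15 in OVA WT and at 4.71, 3.77, 4.15 and 2.73 in OVA Mcemp1-/- libraries, with a clear gap (51.8% of WT, log2 difference -0.88 ± 0.15 SE, adjusted p = 0.0284, limma). The call was lost (adjusted p up to 0.0913) without OVA WT library 1 or 3, OVA Mcemp1-/- library 2 or 4, or saline Mcemp1-/- library 2 or 3. Arg1, arginase 1, had OVA WT values of 10.6, 47.6, 37.6 and 16.1 and OVA Mcemp1-/- values of 6.74, 3.71, 8.65 and 1.29, a difference of -2.35 ± 0.49 SE that missed the threshold (adjusted p = 0.0602, limma). Mmp12, macrophage elastase, differed by -1.38 ± 0.31 SE (adjusted p = 0.0759, limma). Without Mcemp1-/- library 1 the list held 10 calls, a count raised by the choice of that library, against 2.54% of all genes called lower in that fit. Among markers of monocytes and interstitial macrophages, Ms4a7 fell to 61.4% of WT (8.67 ± 0.61 against 5.32 ± 0.69, SD, n = 4, adjusted p = 0.0420, limma). Of these 20 markers, 9 had an unadjusted p under 0.05 and were lower, against 9.21% of all genes. The Ms4a7 call held only without OVA Mcemp1-/- library 1 or saline WT library 2 (adjusted p up to 0.127). The list median was -0.35, and -0.19 without OVA WT library 1. The markers Cd14 (log2 difference 0.13, adjusted p = 0.510, limma) and Lyz2 were on the other side, Lyz2 at 3228 in OVA WT against 4407 in OVA Mcemp1-/- lung with an adjusted p of 0.193. Lysosomal protease Lgmn, anaphylatoxin receptor C3ar1 and thromboxane synthase Tbxas1 also fell, to 68.4%, 59.2% and 60.5% of WT. The Lgmn call was lost (adjusted p up to 0.0642) without OVA WT library 1 or OVA Mcemp1-/- library 2 or 4. The C3ar1 call was lost (adjusted p up to 0.0932) without OVA WT library 1, 2 or 3, OVA Mcemp1-/- library 2 or 4, or saline Mcemp1-/- library 2 or 3. The Tbxas1 call held only without OVA WT library 4, OVA Mcemp1-/- library 1 or saline WT library 3 (adjusted p up to 0.132).

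Timp1, an inhibitor of matrix metalloproteinases and one of the proteins measured in lavage, was at 14.9, 19.6, 15.4 and 13.96 in OVA WT and at 8.35, 5.38, 6.92 and 3.38 in OVA Mcemp1-/- libraries. No value crossed between groups, and saline groups were at 4.29 ± 0.43 (SD, n = 3) and 3.90 ± 0.62 (SD, n = 3). It fell to 37.6% of WT (log2 difference -1.39 ± 0.21 SE, adjusted p = 0.0119, limma), a call held in all 14 leave-one-out fits and lost in a fit of the 8 OVA libraries alone (adjusted p = 0.158) and with the heart muscle score as a covariate (adjusted p = 0.144). The study chose some genes on these same samples, so its lists are not independent evidence. Of the 14 lavage proteins with a tested gene, Timp1 alone was called, and Ccl9 and Cxcl10 had adjusted p of 0.0535 and 0.102 and were lower, while Mmp9 was higher in the knockout (log2 difference 1.33, adjusted p = 0.128, limma). These are RNA values of whole lung, whereas the study measured protein in lavage fluid, and the measures need not match. The study reports less MMP-9 and TIMP-1 protein in lavage and plasma of knockouts after OVA. Ifi208, an interferon-inducible gene of the PYHIN family, fell to 33.4% of WT, at 34.0, 24.6, 24.5 and 23.9 against 8.91, 8.65, 7.78 and 10.3 (adjusted p = 0.000129, limma). Batf3, a transcription factor of dendritic cells, was at 4.62 ± 2.30 in OVA WT and 1.61 ± 0.44 in OVA Mcemp1-/- lung (SD, n = 4, adjusted p = 0.0441, limma), and its call held only without OVA WT library 2 or 4 or OVA Mcemp1-/- library 1 (adjusted p up to 0.139). Acod1, which makes itaconate in activated macrophages, was at 2.30 ± 0.70 and 0.821 ± 0.23 (SD, n = 4, adjusted p = 0.0495, limma), held only without OVA WT library 3 or OVA Mcemp1-/- library 1 (adjusted p up to 0.153).

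Genes induced by interferon gamma had lower values in the knockout, with Mcemp1-/- library 1 nearest WT. Of 22 such genes, which hold Gbp and Irg family GTPases along with Irf1, Socs1 and Cd274, all 22 had a log2 difference below 0. Their median was -0.62. At an unadjusted p under 0.05, 16 were lower, against 9.21% of all genes, but 1 was called, against 0.211% of all genes. Cd274, which encodes the checkpoint ligand PD-L1, was at 45.6, 53.0, 32.4 and 44.9 in OVA WT and at 32.0, 21.6, 21.8 and 18.6 in OVA Mcemp1-/- libraries, the WT low and the knockout high of nearly the same value. It fell to 53.4% of WT (log2 difference -0.90 ± 0.16 SE, adjusted p = 0.0358, limma), a call held only without OVA WT library 3 or OVA Mcemp1-/- library 1 (adjusted p up to 0.113). Igtp, whose promoter is shown above, was at 70.4, 57.1, 42.8 and 70.6 in OVA WT and at 47.6, 32.0, 28.8 and 28.7 in OVA Mcemp1-/- libraries, and the groups overlapped (log2 difference -0.81 ± 0.20 SE, adjusted p = 0.0866, limma). The mean log2 level of the 22 genes was 5.43, 5.20, 4.74 and 5.24 in OVA WT, 4.96, 4.45, 4.41 and 4.39 in OVA Mcemp1-/- and 3.88 to 4.29 in the saline libraries. Library 1 of the knockouts was the highest of the 4 in 20 of the 22 genes, against 26.6% of all genes. Without it 12 were called, against 2.54% of all genes called lower. In class I antigen presentation (Tap1, Psmb8 and 15 others), all 17 were below 0 and 15 had an unadjusted p under 0.05, none was called with all libraries (median -0.46), 12 were without library 1, and library 1 was the highest knockout in 17 of 17. Without the pair rich in airway genes, 7 of the 17 had an unadjusted p under 0.05 and the median was -0.34. In 30 type I interferon-stimulated genes, such as Ifit1, Stat2 and Irf7, all 30 were below 0, 18 had an unadjusted p under 0.05, none was called and 9 were without library 1. For both of these lists, the share over all genes was 9.21% lower at an unadjusted p under 0.05, and 2.54% called lower without library 1. Library 1 was singled out for its rank in the called genes, so the counts without it in these 3 lists are raised by that choice.

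**Figure D3:**
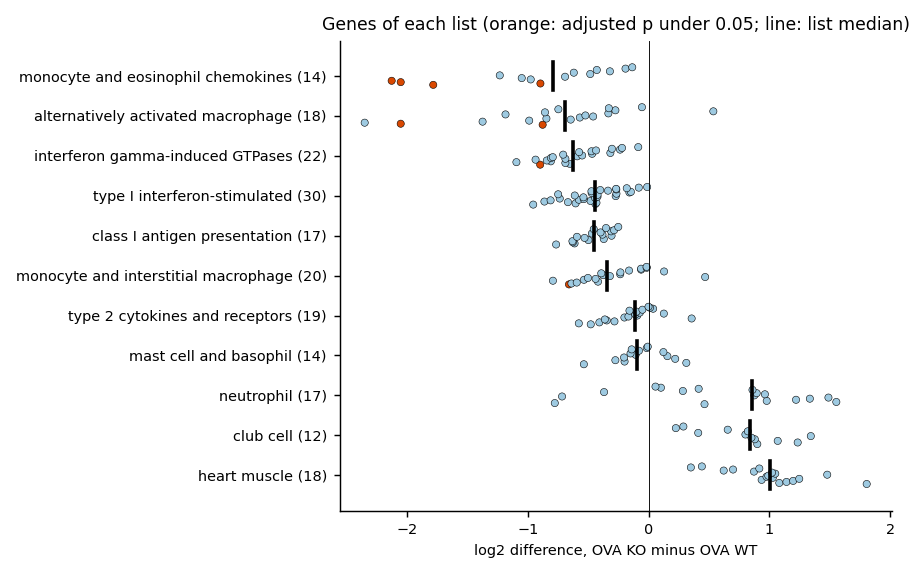
Log2 difference, OVA Mcemp1-/- minus OVA WT, for the genes of 11 lists (vertical axis, gene number in brackets), 1 point per gene, orange where the adjusted p was under 0.05, with the list median as a line. The 6 upper lists have medians from -0.80 to -0.35, and neutrophil, club cell and heart muscle lists lie on the other side at 0.86, 0.84 and 1.01.

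Type 2 cytokines themselves were low and none was called. Il13 was at 0.255, 0.422, 0.319 and 0.237 in OVA WT and at 0.169, 0.0159, 0.109 and 0.0286 in OVA Mcemp1-/- libraries, with means of 0.308 and 0.0805 (26.1% of WT). The lowest value of a column, taken as 1 read, was 0.0143 to 0.0237 in these libraries. It was positive in every column, so it may instead stand for no reads. For Il13, Mcemp1-/- library 2 was at the lowest value of its column, and only library 4 was otherwise near it. On the log2(value + 0.5) scale, which understates the change of so low a gene, the difference was -0.48 ± 0.10 SE and just missed the threshold (adjusted p = 0.0521, limma). Il5, Il4 and Il10 had differences of -0.10, 0.04 and -0.60 (adjusted p = 0.677, 0.918 and 0.290, limma). Of 19 genes in the list, 5 had an unadjusted p under 0.05 and were lower, against 9.21% of all genes, and none was called. The list median was -0.11, and -0.18 and -0.19 without WT library 1 or 4. Mast cell and basophil genes gave no call either: of 14 measured of 23 listed, 1 was lower and 1 higher at an unadjusted p under 0.05. Over all genes, 9.21% were lower and 8.61% higher at that level. The median of the 14 was -0.09 (-0.05 without WT library 1 or Mcemp1-/- library 2). Mast cell tryptase Tpsab1 and the proteases Mcpt1 and Mcpt2 were among the 9 that did not pass the filter, and the high affinity IgE receptor genes Ms4a2 and Fcer1a were at or below 1.00 in every OVA library. In 26 KIT signalling genes the median was -0.06, and 0.07 with equal column totals, and none was called.

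Immunoglobulin genes, Igha and 19 variable segments, were among the 42 rises. Igha, the constant region of IgA, was at 65.4, 50.5, 255.6 and 134.2 in OVA WT and at 711.6, 480.6, 587.8 and 444.3 in OVA Mcemp1-/- libraries, so the lowest knockout value was above the highest WT value. It rose 4.4-fold (log2 difference 2.40 ± 0.40 SE, adjusted p = 0.0284, limma), held in 7 of 14 fits and lost (adjusted p up to 0.0915) without OVA WT library 1, OVA Mcemp1-/- library 2, 3 or 4, or any 1 saline Mcemp1-/- library. Igha was higher in the knockout after saline too, at 99.0 ± 10.9 against 14.1 ± 6.01 (SD, n = 3, adjusted p = 0.0401, limma), and the difference between the 2 treatments was -0.44 (adjusted p = 0.889, limma). Of 152 variable segments tested, 19 rose and none fell, 91 had an unadjusted p under 0.05 and were higher and 0 were lower, and the median was 0.79. Over all genes 0.184% rose, and 8.61% were higher at an unadjusted p under 0.05. The filter, at least 0.2 in at least 3 libraries, admits segments that reach it in the OVA Mcemp1-/- libraries alone. Such segments tilt these counts toward rises. Their sum was 45.9 to 177.8 in OVA WT, 239.2 to 524.7 in OVA Mcemp1-/-, 18.4 to 25.7 in saline WT and 44.4 to 57.7 in saline Mcemp1-/- libraries. Reads from near-identical segments can be split between them, so single segments are uncertain. Other constant regions did not pass the test. Ighg2c and Ighg2b had differences of 2.40 and 1.08 (adjusted p = 0.157 and 0.230, limma), and Ighg1, with OVA WT values of 23.5, 152, 163 and 833 and OVA Mcemp1-/- values of 41.2, 157, 112 and 2.26, had -1.98 ± 1.18 SE (adjusted p = 0.396, limma).

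**Figure D4:**
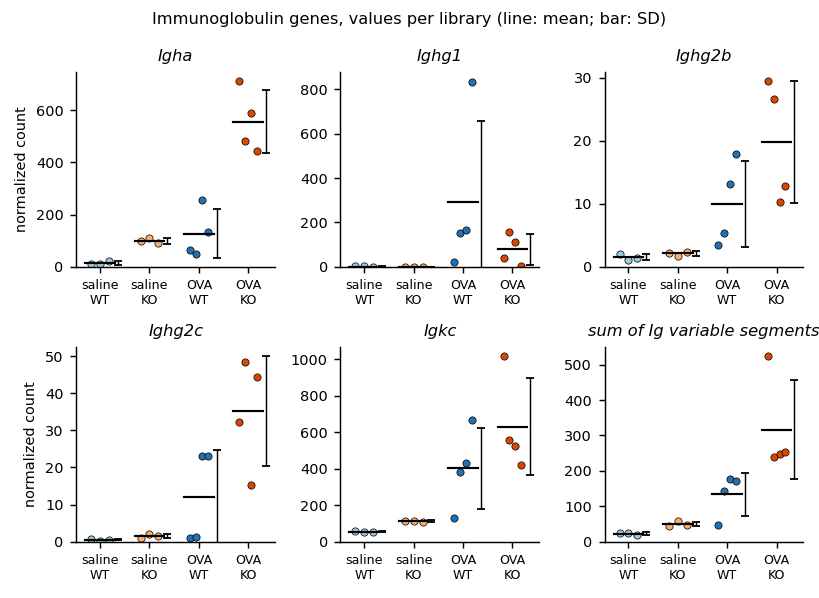
Normalized count per library for 5 immunoglobulin constant regions and for the sum of 152 variable segments, in the 4 groups with mean and SD. Igha and the segment sum separate the OVA groups, with saline Mcemp1-/- libraries above saline WT libraries for both, while Ighg1 overlaps.

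Among other rises, club cell genes were higher in the knockout without a call. All 12 were above 0, 7 had an unadjusted p under 0.05 (8.61% of all genes were higher at that level), and the median was 0.84. Ciliated cell genes moved with them, with 16 of 16 above 0, 2 at an unadjusted p under 0.05, no call and a median of 0.53, and their sum was 494.3 to 1075 in OVA WT and 593.4 to 1591 in OVA Mcemp1-/- libraries. The part of airway content in these differences was not tested, and without the pair rich in airway genes the club cell median was 0.83 and the ciliated 0.57. Scgb1a1, the club cell secretoglobin, was at 5556 in OVA WT and 12003 in OVA Mcemp1-/- on average (log2 difference 1.07 ± 0.25 SE, adjusted p = 0.0804, limma), against saline means of 23091 and 24258. Without Mcemp1-/- library 1, 7 of the 12 were called, a count raised by the choice of that library, against 2.42% of all genes called higher. Library 1 was the lowest of the knockouts in 10 of the 12, against 28.7% of all genes. Scgb1c1, another secretoglobin, rose from 2.13 ± 0.33 to 5.25 ± 1.26 (SD, n = 4, adjusted p = 0.0254, limma), a call lost (adjusted p up to 0.0900) without OVA WT library 1 or 4 or OVA Mcemp1-/- library 2 or 4. Vnn3, a pantetheinase, rose 2.87-fold, and Aox3, an aldehyde oxidase, and Btc, an epidermal growth factor receptor ligand, were also called (adjusted p = 0.0441 each, limma). Each of these calls held in 2 of the 14 fits that left out a library, Vnn3 only without OVA Mcemp1-/- library 1 or 2, and Aox3 and Btc only without OVA WT library 3 or OVA Mcemp1-/- library 1 (adjusted p up to 0.139, 0.141 and 0.139). Neutrophil genes were higher in 14 of 17, 9 at an unadjusted p under 0.05, and none was called (median 0.86). This median was 0.43 without Mcemp1-/- library 3, 0.55 without WT library 3 and 0.49 without the pair rich in airway genes. S100a9 differed by 1.55 ± 0.44 SE and Mmp9 by 1.33 ± 0.40 SE (adjusted p = 0.112 and 0.128, limma), while Cxcl2 was lower by -0.78. The list summed to 283 to 596 in OVA WT and 466 to 1481 in OVA Mcemp1-/- libraries, and to 216 to 347 and 315 to 508 after saline. Heart muscle genes had a median of 1.01, 13 of 18 at an unadjusted p under 0.05 and none called. Their part in the other rises and in the falls was not tested beyond a fit with their score as a covariate, which left 4 genes higher and 11 lower. In that fit Ccl2 was called (adjusted p = 0.0237, limma), and Ccl7, Ccl24, Trem2, Cd274 and Ms4a7 were not (adjusted p = 0.211 to 0.296, limma). With the 8 OVA libraries alone, Ccl2 was again called (adjusted p = 0.0391, limma) and the same 5 were not (adjusted p = 0.168 to 0.25, limma).

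Genes that differed between genotypes in both treatments formed a separate group. Of the 19 genes called after saline (0.0834% of those tested), 13 were called after OVA with the same sign, which is 68.4% of the saline calls and 14.4% of the OVA calls. Beside Mcemp1, Igha and 1 of the Nnt IDs these were Kpna2, Plac9a, Tmem254a, Lrmda, Duxbl1, Mid1, G530011O06Rik, Gm15446, Gm47917 and 1010001B22Rik. Kpna2, an importin alpha that carries proteins into the nucleus, was at 2.88, 3.99, 3.56 and 3.79 in OVA WT and 0.430, 0.495, 0.371 and 0.423 in OVA Mcemp1-/- libraries, a fall to 12.1% of WT (adjusted p = 9.29e-07, limma). Plac9a fell to 18.1% of WT (adjusted p = 1.51e-05, limma) and had a mean of 27.0 in saline Mcemp1-/- and 99.9 in saline WT lung. Both Ensembl IDs of Nnt, the mitochondrial transhydrogenase, were higher in the knockout, with log2 differences of 1.44 and 0.82, and since the 2 IDs cover the same locus their separate values are uncertain. Plac9a, Tmem254a and Duxbl1 lie within 1 stretch of chromosome 14 between 25887506 and 25990088 (GRCm38, GENCODE M21), and each belongs to a family with near-identical copies, so their reads are uncertain as well. Chromosome 14 held 10 of the 90 calls (1.22% of its tested genes) and chromosome 12, which carries the heavy chain locus, held 20 (2.15%). Of 58 genes tested within 5 Mb of Mcemp1 on chromosome 8, none was called, against 0.395% of all genes tested, a share that over 58 genes comes to less than 1 gene. A difference in the genetic background of the 2 lines and the loss of Mcemp1 cannot be told apart here.

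**Figure D5:**
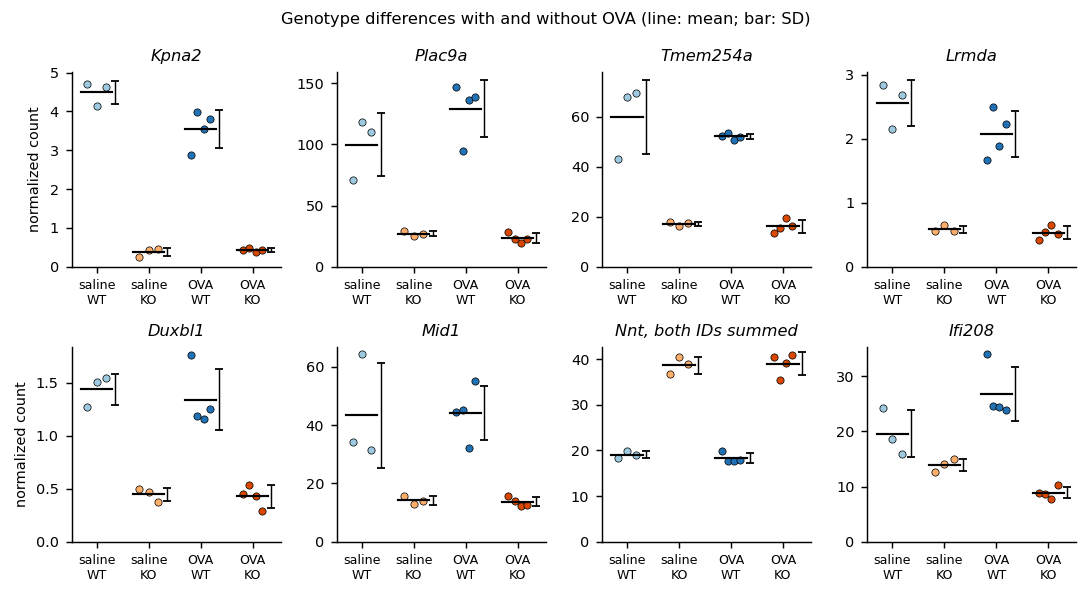
Normalized count per library for 7 panels of genes called after both treatments (Nnt as the sum of its 2 IDs) and for Ifi208, in the 4 groups with mean and SD. In the first 7 panels WT and Mcemp1-/- separate in saline and in OVA alike, and Ifi208 is called after OVA only.

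Whether a genotype difference changed with OVA was tested as the difference between the 2 differences. Only 1 gene (0.00439% of those tested) passed, Gm16867, a predicted gene (2.73, adjusted p = 0.0255, limma), which was at 3.59, 3.29 and 4.61 in saline WT and 0.051, 0.058 and 0.135 in saline Mcemp1-/- but overlapped after OVA. Gm16867 lies in a stretch of chromosome 14 that held every gene called after saline only, with starts from 69337174 (Entpd4) to 69582164 (Gm27177). In that stretch Gm27221 and Gm27176 had identical differences, -0.58 after saline and -0.04 after OVA. Reads there may be shared between genes, so the values of Gm16867 are uncertain. At an unadjusted p under 0.05 there were 1604 genes. For Ccl2 the OVA difference minus the saline difference was -1.29 (adjusted p = 0.549, limma), for Timp1 -1.27 (adjusted p = 0.549), for Cd274 -1.07 (adjusted p = 0.549) and for Ccl24 -1.83 (adjusted p = 0.636). None of the chemokine, macrophage or interferon genes named above passed this test, so their genotype differences are not shown to be particular to OVA.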

How the data were processed

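Libraries were made from lung RNA and sequenced on a NovaSeq instrument, and per the labels the reads were aligned with STAR to mm10 and processed in Partek. The authors deposited 1 table of normalized counts per gene, a signal that is neither raw counts nor per-million values, for 24270 genes, and its normalization method and annotation are not given in the sources used here. Control columns were read as saline. Column totals differed between libraries, and the lowest value of each column was taken as 1 read to estimate depth, which covers counting error only. The lowest value was positive in every column, so it may stand for no reads. Values were taken as log2(value + 0.5), so the fold change of low genes is understated. The 22771 genes with a value of at least 0.2 in at least 3 libraries were fitted with limma 3.58.1 in R 4.3.3 (trend and robust) over the 4 groups of all 14 libraries, and p-values were adjusted by Benjamini-Hochberg over all genes tested. The method was tested on simulated data, drawn as independent normal values per gene, with differences added to some genes of higher value. That simulation held no depth gap, outlying library or correlation between genes. Fold changes in percent are ratios of group means. Gene positions came from GENCODE M21 by Ensembl ID (99.7% of IDs found) and promoters from RefSeq. Genes named in the text were Mcemp1, the study's lists, the 12 largest rises and falls among called genes without overlap (predicted genes, pseudogenes and variable segments left out), up to 5 genes of smallest p for each list, and for the saline and treatment tests 5 in each direction. Other called genes named for their role or their calls in both treatments were chosen after their values were seen. Results for some genes of these lists are not reported here. The members and gene lists were chosen with earlier results of these data known. Alternatives covered pseudocounts, filters, scalings, the libraries in the fit, weights, the replicate number as a block and each library left out in turn.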

Additional observations from a re-analysis of the deposited data

Results flagged for a closer look

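Among 184 groups of 4 libraries examined, 19 held a library far from the other 3 (the gap to the nearest of them, over the whole range, was above Dixon's critical value), where chance flags about 1 group in 20. In OVA WT, library 1 was high for Ifi208 (34.0), Duxbl1 (1.77), Cox7c-ps1 (45.0), Sox18 (106.8) and Vcam1 (123.7). Library 2 of OVA WT was high for Ccl2 (8.77), Ccl5 (38.8) and Mid1-ps1 (0.0801) and low for Atf5 (122.5) and A330023F24Rik (14.003). Library 3 was high for Gm49686 (0.432) and Btc (3.24), and library 4 was high for Gm49146 (0.473) and low for Lgmn (135.2) and Pkig (45.9). In OVA Mcemp1-/-, library 1 was high for Gm47917 (0.319) and low for Gstz1 (34.2), library 2 was high for Gm8126 (0.0420) and library 3 was low for Rspo4 (0.217). Gm16867 was flagged because its genotype difference changed with treatment, by 2.73 on the log2 scale (adjusted p = 0.0255, limma).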

How the results depend on the processing

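With 90 calls after OVA, the other settings gave 17 with only the 8 OVA libraries, 59 with a filter of at least 2 in 4 libraries, 41 with a fold of at least 2, 15 with the heart muscle score as a covariate, 242 with array weights and 219 with the replicate block. Leaving out 1 library each gave 29 to 1126. Of the 90, 16 remained with the 8 OVA libraries alone, 83 with the replicate block, 72 with equal column totals, 35 without OVA WT library 2 and Mcemp1-/- library 3 (the pair rich in airway genes, 67 calls) and 12 in all 28 refits, which leave the fold threshold aside. After saline, 19 calls became 48 with array weights and 10 with the replicate block, and 10 to 21 when 1 library was left out. The 1 treatment-dependent gene became 0 with a pseudocount of 1, a pseudocount of 5, the heart muscle score as a covariate or the replicate block, and 0 to 2 when 1 library was left out (limma; 1604 genes at an unadjusted p under 0.05 with all libraries). Replicate numbers showed no clear pairing of the samples. Deviations of same-numbered OVA libraries correlated from -0.35 to 0.45, those of other numbers from -0.49 to 0.49, and 2 of 8 libraries matched their own number best. The same-numbered pairs are too few to tell whether the numbers mark a pairing. Mcemp1 kept its call in all 28. Genes that were not called and changed sign were Ccl5 (0.23 with array weights, 0.32 without that pair, and -0.34 to 0.29 when 1 library was left out), Kitl (-0.0032 with array weights, -0.034 to 0.18 when 1 library was left out), Vegfa (-0.035 without that pair, -0.070 to 0.19 when 1 library was left out), Cfb (-0.41 with array weights, -0.042 with the heart muscle covariate, -0.34 without the pair, and -0.26 to 0.42 when 1 library was left out) and Il4 (-0.075 to 0.16 when 1 library was left out). The causes were not tested. A permutation test for each gene was not run, since 4 against 4 cannot give a p below 0.0286. Depth limits genes near the lowest value of a column, as Il13 was in Mcemp1-/- libraries 2 and 4.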
